A study of Rattus norvegicus with 6 samples.

Results

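The miRNA repertoire of neonatal rat cardiac fibroblasts was described from the 3 fibroblast libraries of the series, numbered 1, 2 and 4 by the submitters. These are 3 of 6 libraries, and the other 3 come from exosomes released by such cells and were not used for any value given here. All 728 listed mature miRNAs were taken, with no choice by level. The cells came from hearts of Wistar rats at stage P1-P2 (1 to 2 days after birth). They were grown in DMEM with 10% fetal bovine serum and then kept for 48 h in medium with 1% serum depleted of exosomes, and Trizol RNA went into small RNA libraries. No genetic change or drug is labelled. The labels do not say whether the 3 libraries came from separate litters or cultures, so the spread between them may be technical in part. All libraries belong to 1 group, and every value is therefore a description without a test.

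Cardiac fibroblasts are the main matrix-producing cells of the heart and turn into contractile myofibroblasts after injury. A miRNA is cut from a hairpin precursor that can release a mature strand from either side, the 5p and the 3p arm, and 1 of them is usually loaded into Argonaute and kept. The loaded strand finds its target mRNAs mainly by its seed, the bases near its 5′ end, so miRNAs with the same seed form a family with overlapping targets. Many miRNA genes lie close together and are transcribed as 1 unit. Several miRNAs listed here have been studied in fibroblasts, among them miR-21 and the miR-29 family, which are known for promoting and for restraining fibrosis.

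RefSeq (assembly GRCr8) held a mature sequence for 655 of the 728 miRNAs. These sequences covered 96.9% ± 0.187 of the miRNA counts (SD, n = 3) and 28 of the 30 most abundant miRNAs. miR-151-3p and miR-30d-5p were without one, and miRNAs without a sequence enter no seed family here. The strands below are printed 5′ to 3′ with the seed (bases 2 to 8) in capitals. They lead the 8 largest seed families among miRNAs with a sequence, and they carry most of the miRNA counts of these cells.
miR-143-3p: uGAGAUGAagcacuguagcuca
miR-22-3p: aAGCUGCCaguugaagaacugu
let-7f-5p: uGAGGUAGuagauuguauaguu
miR-21-5p: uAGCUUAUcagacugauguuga
miR-181a-5p: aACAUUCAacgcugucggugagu
miR-351-5p: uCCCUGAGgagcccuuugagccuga
miR-26a-5p: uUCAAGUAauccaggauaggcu
miR-148b-3p: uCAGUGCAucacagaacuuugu

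The miRNA counts summed to 6377441 in library 1, 12508651 in library 2 and 2439559 in library 4. Levels are given as CPM (a count scaled to a fixed total of miRNA counts) or as a percentage of the miRNA counts of a library, so they are relative levels. All 728 miRNAs had a count in libraries 1 and 2, and 725 had one in library 4, where 3 miRNAs were at 0. A count of 0 in library 4 allows a share of up to 0.000123%. In bulk RNA, fewer cells of a type and less RNA per cell cannot be told apart. Library 2 stood apart at the low end: 410 of its miRNAs reached 100 CPM, against 243 in library 1 and 228 in library 4. At 1000 CPM or more the numbers were close, at 62, 65 and 61 miRNAs in libraries 1, 2 and 4. Log2(CPM + 1) values correlated across the 728 miRNAs with Pearson's r of 0.96 between libraries 1 and 2, 0.93 between 1 and 4, and 0.91 between 2 and 4. Among the 424 miRNAs under 100 CPM the coefficients were 0.83, 0.71 and 0.66. miRNAs of a library are not independent replicates, and each pair of libraries shares the same list.

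A few miRNAs held most of the counts. miR-143-3p, best known from smooth muscle, stood at 230325, 245912 and 275529 CPM in libraries 1, 2 and 4. It was the most abundant miRNA in each library, at 25.1% ± 2.30 of the counts (SD, n = 3). Its exact Clopper-Pearson 95% interval in the shallowest library was 27.5% to 27.6%, which covers counting error only and is far narrower than the spread between libraries. miR-22-3p, known for a part in cardiac hypertrophy and ageing, had 176136, 156535 and 145509 CPM. miR-21-5p, the fibrosis-associated miRNA, had 81669, 98662 and 85093 CPM. The ranges of these 3 did not overlap with each other or with that of the next miRNA, so their order was the same in all libraries. Together they made up 49.8% ± 0.929 of the counts.

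Below the third rank the order was less firm. Of the 29 pairs of neighbours among the 30 most abundant miRNAs, the 3 first pairs were the ones whose ranges did not overlap. Ranges can overlap without a change of order: miR-181a-5p was above miR-26a-5p in each library. let-7f-5p followed with 40778, 33928 and 34430 CPM, and miR-181a-5p with 38461, 25283 and 42084 CPM. let-7f-5p was thus above miR-181a-5p in libraries 1 and 2 and below it in library 4. miR-26a-5p, reported as a repressor of growth, had rank 6 in libraries 1 and 2 and rank 11 in library 4, with 33475, 24545 and 19156 CPM. The 10 most abundant miRNAs of the mean profile held 67.3% ± 1.75 of the counts, and the 30 most abundant held 85.1% ± 2.56. Of the lists of 30 taken per library, 26 miRNAs were in all 3 lists and 35 were in at least 1. Of the lists of 10, 6 were in all and 14 in at least 1.

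**Figure D1:**
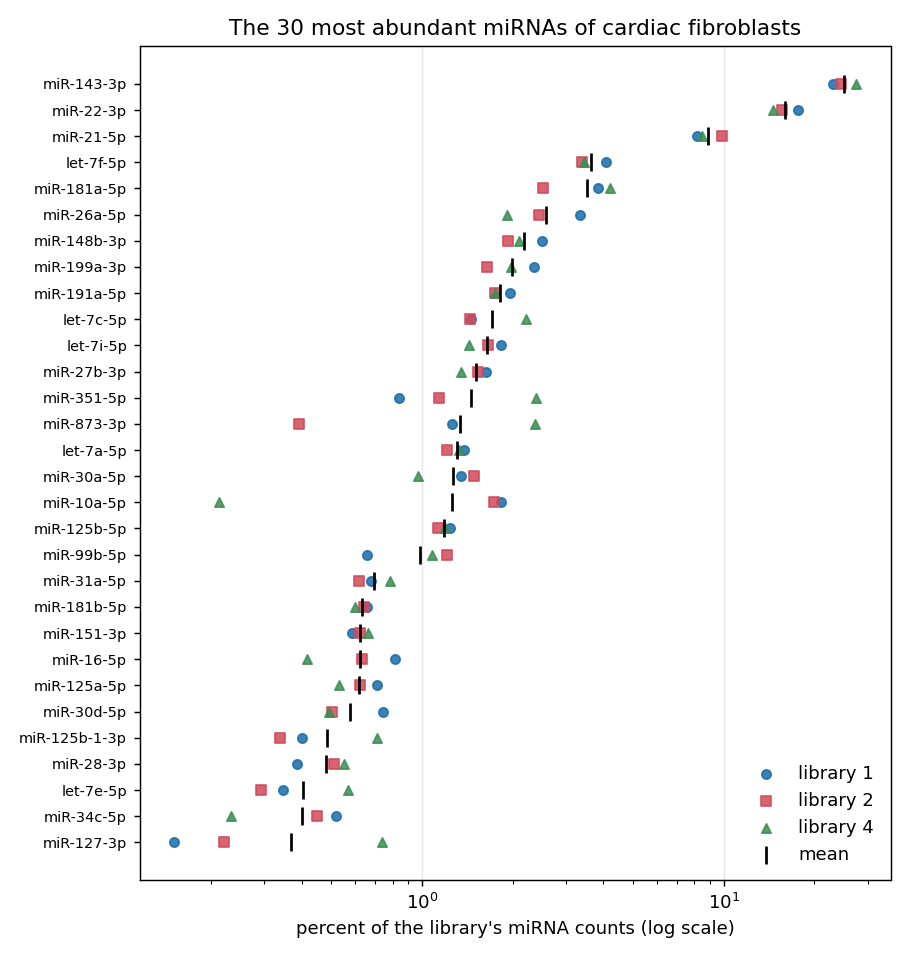
Percent of the miRNA counts (x axis, log scale) of the 30 miRNAs with the highest mean CPM, with 1 point per library and the mean as a bar. miR-143-3p, miR-22-3p and miR-21-5p keep their order in all 3 libraries. miR-351-5p, miR-10a-5p and miR-127-3p have 1 library far from the others, and miR-873-3p differs between all 3.

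The concentration of counts differed most in library 2. It took 42 miRNAs in library 1 and 40 in library 4 to reach 90% of the counts, but 80 in library 2 (54 ± 22.5, SD, n = 3; 41 without library 2). miRNAs with a mean under 100 CPM held 1.24% of library 1, 3.05% of library 2 and 0.966% of library 4. The plot of levels by rank shows the curves close to each other down to about 1000 CPM and library 2 lying above the other two at low levels. Reads that the authors' normalized table sums in a row named rest, outside the listed miRNAs, were 82.4% of the reads of library 2 and 63.1% and 66.0% in libraries 1 and 4. Their part in the higher low end of library 2 was not tested.

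**Figure D2:**
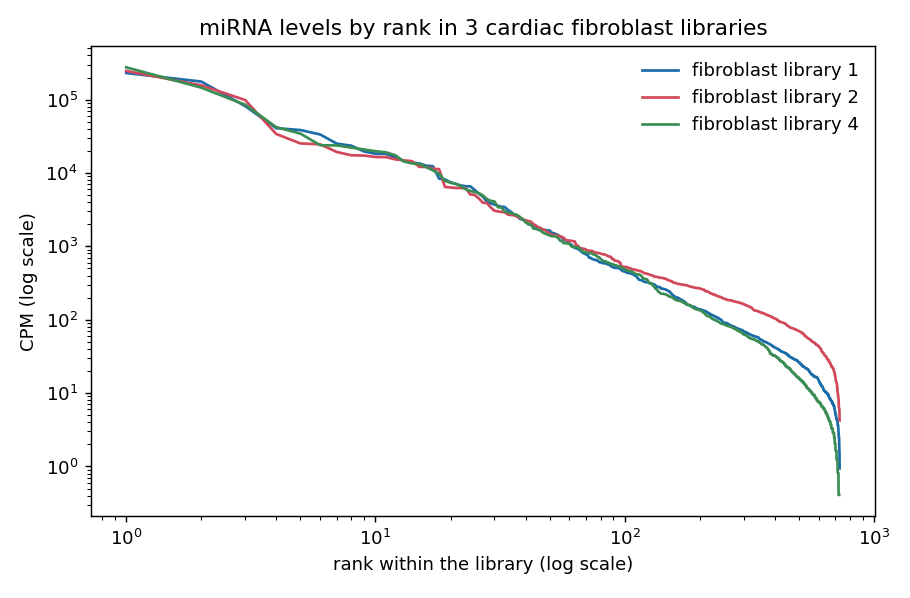
CPM (y axis, log scale) against the rank of each miRNA within its library (x axis, log scale), 1 line per fibroblast library. The lines overlap for the abundant miRNAs, and library 2 lies above libraries 1 and 4 at the low end, where 410 of its miRNAs reach 100 CPM against 243 and 228.

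The annotated sequences of abundant miRNAs differed in makeup from those of the whole list. A 5′ U is the base that Argonaute is known to favour, and it opened 35.9% of the 655 miRNAs with a sequence but carried 62.8% ± 1.01 of the counts of those miRNAs (SD, n = 3). Strands starting with C were 21.8% of the list and 6.47% ± 0.774 of the counts. Among the 385 miRNAs under 100 CPM, a 5′ U opened 36.1% of the miRNAs and carried 34.2% of their counts. Length followed the same course: 22-base strands were 46.1% of the list and 80.1% ± 0.290 of the counts. Most of that weight lies in miR-143-3p, miR-22-3p and miR-21-5p, which are all 22 bases long, and 2 of the 3 start with U. Of the 28 sequences among the 30 most abundant, 19 have 22 bases, and miR-351-5p is the longest at 25.

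The 655 sequences held 557 different seeds, and 66 seeds were shared by 2 or more miRNAs. The 4 largest families by counts were those of miR-143-3p, miR-22-3p, let-7 and miR-21-5p, which together held 59.2% ± 0.939 of the miRNA counts, and the 10 largest held 75.5% ± 2.31. Of those 4, let-7 was the one with several members in the list. Its 8 members share the seed printed for let-7f-5p, and let-7 is known for keeping cells differentiated and restraining growth genes. The family held 9.85%, 8.59% and 9.70% of libraries 1, 2 and 4, close to the share of miR-21-5p. Its sequences are shown since the members differ by as little as 1 base, so that reads can be split between them by the authors' counting. The substitutions against let-7f-5p, numbered from the 5′ end, follow each name, with the base of let-7f-5p first.
let-7a-5p (A12G): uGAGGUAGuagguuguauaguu
let-7c-5p (A12G, A19G): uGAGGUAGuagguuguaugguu
let-7i-5p (A12U, A17G, U18C, A19U): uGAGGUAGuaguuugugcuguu
let-7e-5p (U9G, A12G): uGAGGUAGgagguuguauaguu
let-7d-5p (U1A, A12G, U16C): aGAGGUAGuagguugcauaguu
let-7b-5p (A12G, A17G, A19G): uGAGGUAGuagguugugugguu
miR-98-5p (G11A, A12G, A19U): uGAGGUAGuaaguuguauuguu

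Within the family let-7f-5p led with 38.8% ± 3.00 of the family's counts. let-7c-5p came next at 18.2% ± 4.22, with 14547, 14492 and 22200 CPM, and was highest in library 4 under each of the scalings tried. let-7i-5p held 17.5% ± 2.40. let-7a-5p, 1 base from let-7f-5p, held 13.9% ± 0.227, the steadiest share of the 4 leading members. let-7e-5p, let-7d-5p and let-7b-5p each held between 3% and 5%, and miR-98-5p 0.984%. Every difference from let-7f-5p lies outside the seed.

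Among the other families of 2 or more in the 12 largest, 1 strand made up most of the counts in all but one. miR-181a-5p made up 82.0% ± 4.82 of the miR-181 family, whose 4 members held 4.27% ± 0.854 of the counts, and miR-181b-5p made up 15.4%. miR-26a-5p made up 94.9% of the miR-26 pair and miR-148b-3p 96.7% of the pair with miR-152-3p. miR-27b-3p held 88.5% of the pair with miR-27a-3p, and miR-30a-5p held 74.3% of the group with miR-30e-5p, miR-30c-5p and miR-384-5p. miR-30d-5p and miR-30b-5p bear the same family name but are not in this group. miR-30d-5p, at 4917 to 7465 CPM, had no sequence by that name. The share of miR-30a-5p and the rank of its group therefore cover only members with a sequence. The exception was the family of miR-125 and miR-351, where 3 strands with unlike 3′ ends share 1 seed.
miR-351-5p: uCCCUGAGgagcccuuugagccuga
miR-125b-5p: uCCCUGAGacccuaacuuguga
miR-125a-5p: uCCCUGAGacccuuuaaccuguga

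miR-351-5p, which in rodents comes from the locus of miR-322 and miR-503, held 42.5% ± 14.2 of this family, miR-125b-5p 37.5% ± 7.80 and miR-125a-5p 19.96% ± 6.42. The leader changed between libraries. miR-351-5p had 8381, 11433 and 23891 CPM in libraries 1, 2 and 4, whereas miR-125b-5p had 12375, 11286 and 11967 CPM. miR-125b-5p was thus above miR-351-5p in library 1, just below it in library 2 and far below in library 4, an order that no scaling of a library changes. The share of the whole family moved less, from 2.78% in library 1 and 2.90% in library 2 to 4.12% in library 4.

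**Figure D3:**
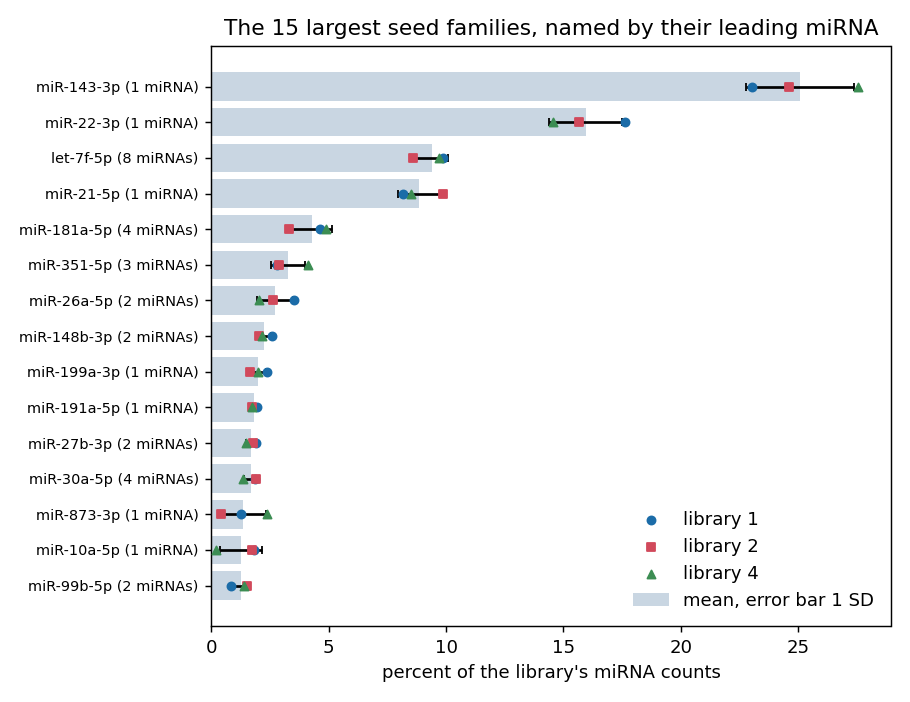
Percent of the miRNA counts (x axis) held by the 15 largest seed families of miRNAs with a sequence. Each is named by its leading miRNA with its number of members that have a sequence. Bars are means, error bars 1 SD over 3 libraries and points the libraries. The first 4 families hold 59.2% of the counts, and the families led by miR-873-3p and miR-10a-5p have the widest spread for their mean.

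A pair of miRNAs that are relatives by descent fell into different seed groups as annotated. miR-10a-5p and miR-10b-5p are transcribed from Hox gene clusters and are known as marks of a cell's position along the body axis, and the RefSeq strand of miR-10b-5p begins further downstream.
miR-10a-5p: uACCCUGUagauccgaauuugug
miR-10b-5p: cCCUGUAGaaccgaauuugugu

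Their levels moved together over the libraries. The 2 printed strands differ by 1 base where they overlap, so reads can be split between them by the authors' counting. miR-10a-5p had 18265, 17285 and 2125 CPM in libraries 1, 2 and 4, and ranked 11, 9 and 40. miR-10b-5p had 4756, 3889 and 470 CPM, and ranked 27, 28 and 102. Both were thus far lower in library 4. The mean of libraries 1 and 2 was 8.36 times library 4 for miR-10a-5p and 9.20 times for miR-10b-5p, or 5.11 and 5.75 times with scaling by the trimmed mean of M-values (TMM). By contrast, miR-214-3p, a mesenchymal miRNA, had 951, 746 and 891 CPM and was lowest in library 2 under each scaling.

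Neighbouring genes, taken as miRNA genes on 1 strand within 10 kb of each other in the RefSeq annotation of GRCr8, formed 51 groups with 177 of 386 hairpins. Mature strands that come from a single gene and lie in such a group held 53.6% ± 1.70 of the counts, and most of that came from 2 groups. In the group of miR-143 and miR-145, miR-143-3p made up 99.5% of the counts. Its neighbour miR-145-5p, a miRNA of the contractile smooth muscle state, had 559, 764 and 442 CPM, and miR-145-3p had 431, 419 and 392 CPM. The 2 genes are known to be transcribed together, yet miR-143-3p had a mean of 250589 CPM and miR-145-5p of 588 CPM. The highest strand in the group was 2094 times the lowest, miR-143-5p, which is the other arm of the same hairpin. In the miR-22 group, miR-22-3p made up 99.9%.

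Levels of the 5p strands lay closer together in the group of miR-99b, let-7e and miR-125a, which held 2.06% ± 0.267 of the counts. Its 5p strands had mean levels of 9839 ± 2887 CPM for miR-99b-5p, 6209 ± 888 for miR-125a-5p and 4028 ± 1466 for let-7e-5p (SD, n = 3). By contrast, miR-27b-3p stood at 15073 ± 1443 CPM and its neighbour miR-23b-3p at 512 ± 31.0 CPM, although both are 3p strands of 1 group. In the group of miR-23a and miR-27a the distance was smaller, with 2005 ± 732 CPM for miR-27a-3p and 1135 ± 36.1 CPM for miR-23a-3p. miR-24-3p, at 785 CPM, comes from a gene in each of these 2 groups and cannot be assigned to either. miR-191a-5p made up 96.5% of its group, with miR-425-5p at 324 CPM.

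The X-linked group of miR-322, miR-503 and miR-351 held 1.72% ± 0.870 of the counts. Of its 10 strands, 9 reached 100 CPM, against 304 of all 728 miRNAs. miR-351-5p made up 83.0% of the group's counts. miR-322-5p, the rodent counterpart of miR-424 and a brake on the cell cycle, had 674, 674 and 813 CPM, so that the ratio of miR-351-5p to miR-322-5p, which scaling does not touch, was highest in library 4. The imprinted locus between Dlk1 and Dio3, whose miRNA genes are silent on the paternal chromosome, gave several groups. Among them was a small one of miR-341, miR-1188 and miR-370 at 0.0745% of the counts. The 2 largest groups of this locus are described here. Its distal group, from miR-379 to miR-410, is the largest of all with 31 genes and has 59 listed strands, yet it held 0.754% ± 0.147 of the counts, and 18 strands reached 100 CPM. miR-668 led it with 1996, 1689 and 3004 CPM, which was 30.7% of the group, followed by miR-667-5p at 458 ± 179 CPM. In the proximal group, with 9 genes, miR-127-3p made up 63.3% and had 1508, 2212 and 7357 CPM. Library 4 was thus 3.96 times the mean of the other two, or 6.98 times with TMM scaling, while miR-433-3p of the same group was highest in library 2 by CPM and with TMM scaling. In the miR-34b/34c pair of p53 targets, miR-34c-5p had 5207, 4488 and 2328 CPM and miR-34b-5p 281, 113 and 104 CPM.

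For 265 hairpins both arms were listed, and the ratio of the 5p to the 3p strand does not depend on the scaling of a library. The 5p arm was higher in all 3 libraries for 107 hairpins and the 3p arm for 104, while 54 changed side. Among the 52 hairpins with 1000 CPM or more over both arms, 30 favoured 5p, 20 favoured 3p and 2 changed side. The mean ratio passed 10-fold for 54 hairpins (30 to 5p and 24 to 3p) and 100-fold for 14. The 2 arms of the most one-sided hairpins at each end, and of miR-145, whose arms were nearly even, are printed to show what was compared.
miR-22-5p: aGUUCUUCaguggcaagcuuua
miR-22-3p: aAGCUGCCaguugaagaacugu
miR-143-5p: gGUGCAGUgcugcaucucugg
miR-143-3p: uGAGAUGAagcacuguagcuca
miR-26a-5p: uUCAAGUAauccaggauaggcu
miR-26a-3p: cCUAUUCUugguuacuugcac
miR-145-5p: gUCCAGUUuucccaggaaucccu
miR-145-3p: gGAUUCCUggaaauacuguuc

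The 3p strand of miR-22 had 1123299, 1958040 and 354979 counts in libraries 1, 2 and 4, and its 5p strand 316, 1571 and 118. The mean log2 ratio of 5p to 3p, with 0.5 counts added to each arm, was -11.21 ± 0.81 (SD, n = 3), a 2366-fold excess of the 3p strand. miR-143 was as one-sided at -11.13 ± 0.68. At the other end stood miR-26a, with 213483, 307027 and 46731 counts for 5p and 46, 353 and 12 for 3p, a log2 ratio of 11.27 ± 1.31. miR-10a (9.77 ± 1.36), miR-16 (8.43 ± 1.10), miR-191a (8.36 ± 0.86) and miR-31a (7.87 ± 1.93) followed on the 5p side, and after them miR-100, let-7i and miR-34c between 7.33 and 7.60. On the 3p side miR-873 (-9.04 ± 3.02), miR-148b (-8.53 ± 0.51) and miR-203a (-7.77 ± 1.40) were next, ahead of miR-27b, miR-301a and miR-29a between -6.29 and -6.46.

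For some abundant hairpins the lesser strand is given too, a set chosen after the ratios were seen. miR-21 was one-sided at a log2 ratio of 7.10 ± 0.25, a 137-fold excess of the 5p strand. Even so miR-21-3p, the passenger strand reported in fibroblast exosomes, was detected in the cells with 3245, 10856 and 1461 counts. For miR-199a, a hairpin of mesenchymal cells, the 3p strand was ahead by a log2 ratio of -2.88 ± 0.26. miR-145 had a ratio of 0.47 ± 0.36 and miR-423 of 0.90 ± 0.57, with 5p ahead in each library.

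Both arms had a sequence for 75 hairpins with 5p higher and 58 with 3p higher in all libraries. The higher arm started with U in 34 and the lower arm in 14 of the former, but in 21 and 18 of the latter. Among the 42 past 10-fold on either side the numbers were 24 and 5. The higher arm of miR-22 and that of miR-191a, which start with A and C, are among those without a 5′ U. The arm ratios were least extreme in library 2. At 100 CPM or more over both arms, the median size of the log2 ratio was 2.31 in library 1, 1.75 in library 2 and 2.51 in library 4. The ratio was nearest to 1 in library 2 for 104 of these 186 hairpins, in library 1 for 36 and in library 4 for 46. Library 2 also had the higher low end given above, whose part in the arm ratios was not tested.

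**Figure D4:**
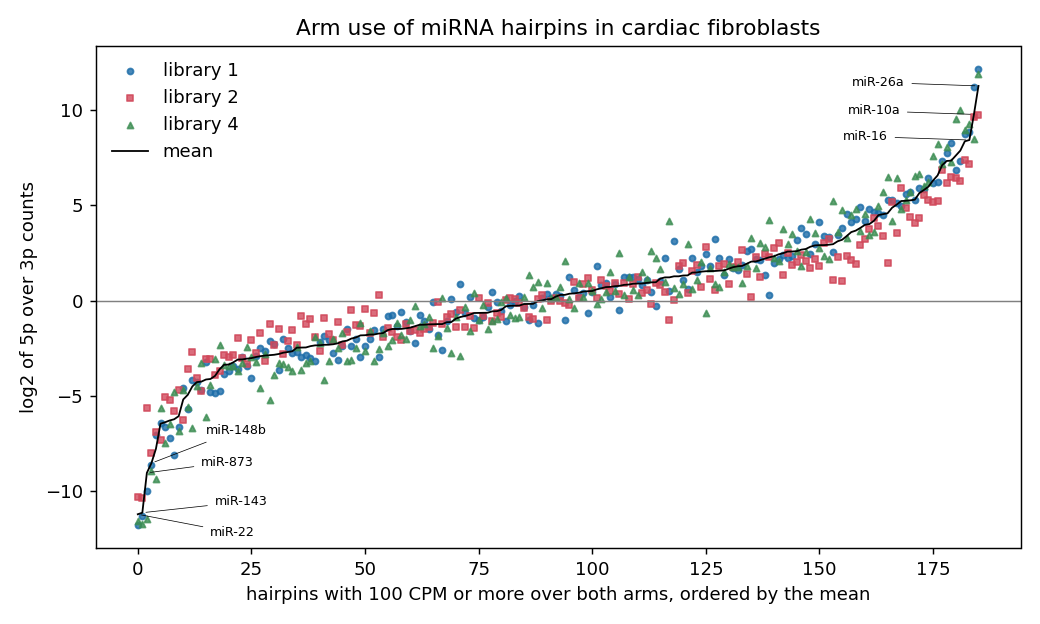
Log2 of 5p over 3p counts (y axis) for the 186 hairpins with 100 CPM or more over both arms, ordered by their mean (black line), with 1 point per library. Ratios run from -11.21 for miR-22 to 11.27 for miR-26a, and the points of library 2 lie nearer to 0 at both ends.

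The spread over the libraries was measured as the coefficient of variation (CV) of CPM. The median CV of the 304 miRNAs with a mean of 100 CPM or more was 44.1%, with quartiles of 25.96% and 65.5%. Counting error was a small part of it: 303 of the 304 varied by more than counting error gives, by a median factor of 16.7. With scaling by totals the CV fell with abundance, from a median of 77.2% at 10 to 100 CPM to 50.2% at 100 to 1000, 31.8% at 1000 to 10000 and 12.9% for the 18 miRNAs above that. The steadiest was miR-192-5p, best known from liver and kidney, with 1313, 1369 and 1358 CPM and a CV of 2.22%. miR-152-5p, miR-23a-3p, miR-125b-5p, miR-181b-5p, miR-145-3p, miR-151-3p and miR-23b-3p followed with CVs of up to 6.1%. TMM scaling lowered log2 levels by 0.77 in library 2 and raised them by 0.23 and 0.54 in libraries 1 and 4. The fall with abundance was not seen with it: the median CVs of the same 4 classes were 45.4%, 40.6%, 48.2% and 45.0%. With DESeq2 size factors they were 42.3%, 42.3%, 53.6% and 49.6%, so the low CVs of abundant miRNAs hold for scaling by totals.

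**Figure D5:**
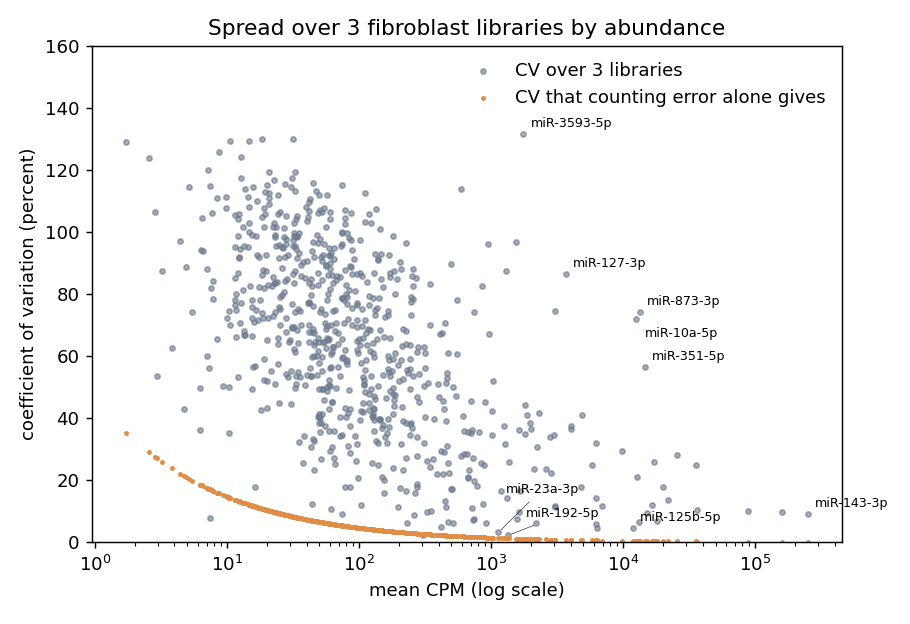
Coefficient of variation of CPM over the 3 libraries (y axis, percent) against mean CPM (x axis, log scale), 1 grey point per miRNA, with the value that counting error alone gives in orange. With this scaling by totals the CV falls with abundance, which it does not with TMM scaling, and miR-3593-5p, miR-127-3p, miR-873-3p, miR-10a-5p and miR-351-5p lie above miRNAs of like abundance.

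The most variable of the 304 was miR-3593-5p, with 456, 386 and 4411 CPM and a CV of 132%. miR-3560 had a like pattern with 248, 162 and 1376 CPM, and library 4 was above both others for these 2 miRNAs under each scaling. The other 6 with a CV over 100% were miR-3557-3p, miR-3569, miR-6316, miR-410-3p, miR-411-5p and miR-195-3p. All 6 were highest in library 2 by CPM, between 242 and 313, and at most 71.8 in either other library. In all, 30 of the 304 were at least 3-fold above both other libraries in library 2, none in library 1 and 7 in library 4. At least 3-fold below both others were 1 in library 2, 2 in library 1 and 21 in library 4. With TMM scaling the numbers above became 0, 3 and 20, and those below became 13, 1 and 5. The miRNAs that stand apart thus depend on the scaling. Of the 391 miRNAs between 10 and 100 CPM, 361 were highest in library 2 by totals, 237 with TMM and 207 with DESeq2 size factors.

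miR-873-3p varied in another way. Its counts were 80123, 48963 and 57905 in libraries 1, 2 and 4, a CV of 25.7%, while the totals ran from 2439559 to 12508651. Its CPM was therefore 12564, 3914 and 23736, with a CV of 74.1%. For 24 miRNAs the counts varied less than the CPM, among them miR-127-3p, miR-3593-5p, miR-665, miR-292-3p, let-7d-3p, miR-3560 and miR-375-5p. Library 4, the shallowest, had the highest CPM for each of these 8 under each scaling tried. The rule that picked them favours this, since steady counts divided by the lowest total give the highest CPM. TMM and DESeq2 scaling raise library 4 further, so they are no separate check. Whether these miRNAs differ between the cells or between the preparations was not tested.

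Lists of miRNAs known from textbooks were read for the levels of miRNAs tied to these and to other cell types. The 35 listed strands of 19 fibroblast and mesenchymal hairpins held 57.7% ± 0.184 of the counts. Of these 35, 25 reached 100 CPM, against 304 of all 728 miRNAs. The median of this list was 659 CPM against 73.8 CPM over all 728. The list was chosen with earlier results of these data known. It includes miR-143-3p, miR-22-3p and miR-21-5p, which alone held 49.8% of the counts. Its share and median therefore do not show what the cells are. Behind miR-143-3p, miR-22-3p and miR-21-5p stood miR-199a-3p with 23530, 16455 and 19810 CPM. Of the miR-29 family, which targets collagen mRNAs, 1 of 7 strands passed 100 CPM: miR-29a-3p with 2689, 1661 and 1103 CPM, lowest in library 4 by totals and in library 2 with TMM or DESeq2 scaling. miR-29c-3p stood at 56.7 ± 27.6 CPM. miR-29a-3p was thus far below miR-21-5p in each library.

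The cell cycle and p53 list held 1.78% ± 0.410 of the counts. Of its 39 strands, 19 reached 100 CPM, against 304 of all 728 miRNAs. The list was led by miR-16-5p, which restrains cyclins, at 8146, 6348 and 4170 CPM. miR-34c-5p followed, and then miR-92a-3p, which comes from genes in 2 clusters and cannot be assigned to either, at 2098 ± 496 CPM and miR-25-3p at 1317 ± 189 CPM. The 3 inflammatory hairpins gave 6 strands and 0.192% ± 0.0730 of the counts. miR-146b-5p, a brake on NF-kappaB signalling, had 1471, 1166 and 436 CPM, and miR-155-5p 404, 489 and 206 CPM.

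Markers of other cells were low. None of the 15 muscle strands reached 100 CPM in the mean, and together they held 0.0325%, 0.0853% and 0.0276% of libraries 1, 2 and 4, or 0.0485% ± 0.0320 (0.0301% without library 2). The defining miR-1-3p of heart muscle had 28, 165 and 4 counts, or 4.39, 13.2 and 1.64 CPM. miR-133a-3p had 30, 109 and 113 counts, or 4.70, 8.71 and 46.3 CPM, and was thus highest in library 4 by CPM. The highest muscle strand in the mean was miR-499-3p at 81.4 ± 64.4 CPM. The endothelial miR-126a-3p stood at 38.3 ± 13.1 CPM and miR-126a-5p, the highest of this list, at 94.5 ± 24.8 CPM. The 3 endothelial strands held 0.0140% of the counts. Blood markers held 0.0530%, led by miR-150-3p at 137 ± 89.5 CPM. Of their 10 strands, 2 reached 100 CPM, against 304 of all 728 miRNAs. No strand of these lists was at 0 in any library.

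Strands of lists named for other tissues were detected at like or higher levels. The epithelial list held 0.134% ± 0.0836 (0.0859% without library 2), mostly miR-203a-3p with 446, 1385 and 409 CPM. The neural list held 0.283% ± 0.114, with miR-128-2-5p leading at 1017 ± 352 CPM. Of its 17 strands, 9 reached 100 CPM, against 304 of all 728 miRNAs. miR-124-3p, a defining neuronal miRNA, had 122, 482 and 81.6 CPM, above miR-1-3p and miR-126a-3p in each library. The liver list held 0.177% ± 0.0215 of the counts, led by the steady miR-192-5p, and its defining miR-122-5p was lowest of the list at 16.9 CPM. By CPM, library 2 was highest for 13 of 15 muscle, 9 of 10 blood, 13 of 14 epithelial and 15 of 17 neural strands, and with TMM scaling for 9, 3, 9 and 5 of them. Over all 728 miRNAs library 2 was highest for 569 by CPM and for 320 with TMM, so these counts by CPM are near those of rare miRNAs as a whole, which were 394 of 424 under 100 CPM. The source of the strands in these lists was not tested.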

How the data were processed

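Read counts per mature miRNA and a normalized table were used as the authors deposited them, for the 3 fibroblast libraries. The deposited counts are whole numbers that the authors named raw. The deposited normalized table is a signal per miRNA, close to the count divided by 1 factor per library. Relative to the raw counts it lacked 0.223%, 0.371% and 0.196% of the counts of libraries 1, 2 and 4. Its last row, named rest, was taken as the reads outside the listed miRNAs. The submitters' processing notes name CASAVA 1.8.2, cutadapt 1.2.1, DESeq and the rat build rn5. Which aligner, miRNA release and counting rule were used is not given in the sources used here. The other 3 per-sample columns of each of the 2 tables and the authors' table of comparisons were not used.

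Counts were divided by the total of listed miRNAs (6377441, 12508651 and 2439559), so the row named rest is outside all shares. SDs are over the 3 libraries. Sequences, seeds (bases 2 to 8) and gene neighbours came from RefSeq (GRCr8), matched by name. No coordinates are given, since the files' build is rn5. Arms were paired by name. A mature strand of several genes was counted once and left out of sums by cluster. Scaling by TMM (edgeR 4.0.16) and by DESeq2 1.42.0 size factors was tried beside totals, as were thinning to the shallowest library, the normalized values in place of counts, other minimums and leaving out each library. The scripts (Python 3.11.15) were tested on simulated data.

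The miRNAs named are the 30 most abundant, the 2 most abundant of each of the 10 largest seed families and clusters, the 8 hairpins at each end of the arm ratios, the 8 miRNAs at each end of the CVs from 100 CPM, up to 4 of each of the 11 lists, and the 8 most abundant whose counts vary less than their CPM. Others named were chosen after their values were seen. The members, lists and comparisons were chosen with earlier results of these data known. No test was made, because all libraries belong to 1 group.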

Additional observations from a re-analysis of the deposited data

Results flagged for a closer look

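The row of the authors' normalized table that sums reads outside the listed miRNAs enters none of the shares given above. It held 63.1% of the reads of library 1, 82.4% of library 2 and 66.0% of library 4. What these reads are is not given in the sources used here.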

How the results depend on the processing

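The number of miRNAs at 10 CPM or more in all 3 libraries was 554, and 198 with a minimum of 100 CPM. The median CV of 44.1% became 44.5% with the normalized values, 43.4% with libraries thinned to the shallowest, 42.8% with TMM scaling, 46.7% with DESeq2 size factors and 65.3% with no minimum. Leaving out 1 library gave 30.1% to 46.5%, the lowest without library 2. The shares of miR-143-3p, of the 10 most abundant, of let-7 and of the largest cluster, and the count of hairpins with 5p higher, moved by less than the spread between libraries or by less than 1.5 times under every alternative run. The normalized table was used for shares only and not as whole reads. Of 108 named miRNAs, the mean CPM moved by more than 1 SD for 10 with TMM, 15 with DESeq2 and 1 with the normalized table. Leaving out libraries for the marker lists other than muscle was added after seeing the data. For the share of a fixed set of miRNAs, leaving out 1 of 3 libraries cannot move the mean by 1 SD of the 3. For these lists, and for the shares of miR-143-3p and let-7 above, those runs therefore do not measure how steady a share is. Depth limits library 4 most: a count of 0 there allows up to 0.000123%. No paired analysis was possible because only the fibroblast libraries were used and no test was made.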

Other observations

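Strands of the miR-290 cluster, known from embryonic stem cells, were detected and differed in level. miR-292-3p, its leading strand, had 280, 636 and 1639 CPM in libraries 1, 2 and 4, highest in library 4 also with TMM and DESeq2 scaling, while miR-291a-3p of the same cluster had 16.6, 72.6 and 12.7 CPM and was highest in library 2 by CPM. The 5p strand of miR-873 had 78, 972 and 20 counts, so that its 3p strand was ahead, with log2 ratios of 5p to 3p of -9.995, -5.65 and -11.46 in libraries 1, 2 and 4. For miR-299b-5p the authors' normalized table held 5.13%, 12.0% and 10.0% of what its raw counts give, the lowest part of any miRNA in each library.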
